A study of Homo sapiens with 2 samples.

Results

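The mitochondrial ribosomal proteins were followed in SK-N-MC cells, a human cell line that the submitters call neuroepithelioma and that is counted among the Ewing sarcoma tumours. Their genes were taken as those whose symbol is MRPL or MRPS followed by a number and an optional letter, with pseudogenes left out, and only probe sets annotated to 1 gene were used. This gave 75 genes out of 19777 with such a probe set on the array, 48 named for the large subunit (MRPL) and 27 for the small subunit (MRPS), read by 140 probe sets. MRPL53 and MRPS24 were not counted among them, because their probe sets are also annotated to a second gene. MRPS24 read 24122 in the MTf clone and 23816 in the vector control on its shared probe set, and MRPL53 read 6454 and 6083. The MTf clone, numbered 4 in the labels, carried the cDNA of human melanotransferrin in the pCMV-Script vector, and the vector control, numbered 1, is labelled with the vector and no inserted gene. Both lines were stably transfected with Lipofectin, and total RNA of each was read on 1 Affymetrix array (U133 Plus 2.0). Each value is therefore 1 reading of 1 line, the groups could not be tested against each other, and differences between separately derived lines cannot be told apart from an effect of the insert.

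The mitochondrial ribosome translates the few messages encoded by mitochondrial DNA, which are all core subunits of the respiratory chain and the ATP synthase. Its RNAs come from mitochondrial DNA, while all of its proteins are encoded in the nucleus, made in the cytosol and imported. The small subunit binds the message and reads codons, and the large subunit joins amino acids and lets the new chain out through a tunnel that faces the inner membrane. Part of the proteins have a counterpart in the bacterial ribosome, and the others are found in mitochondria alone. Inherited defects in several of these genes cause mitochondrial disease.

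Values are probe set signals, linear intensities that have the same trimmed mean on both arrays as deposited, so a shift shared by most transcripts cannot be seen in them. A gene was read by its brightest probe set, and a signal of 208, the 90th percentile of probe sets for olfactory, bitter taste receptor and hair keratin-associated genes, served as the floor of detection. MELTF, the transfected gene, read 4449 in the MTf clone and 18.4 in the vector control on its brightest probe set. Its other probe sets read 209.3 and 245.8, 125.5 and 64.4, and 10.8 and 19.2 in the same order, near or below the floor. Of the Ewing tumour markers, 6 of 6 analysed were detected on both arrays, CD99 and NKX2-2 among them, and all 6 read higher in the MTf clone, by log2 ratios of 0.035 to 0.76. Also detected were 5 of 5 fibroblast markers, 2 of 5 epithelial, 1 of 5 hepatocyte and 1 of 4 leukocyte markers, the last being PTPRC at 13943 in the MTf clone and 15581 in the vector control. The 18 hybridisation spikes had a median ratio of 0.706, MTf clone over vector control, and the 24 poly-A spikes a median ratio of 1.53. Background probe sets had a median signal of 44.0 in the MTf clone and 67.4 in the vector control. The ratio of the 3' to the 5' signal of ACTB was 1.44 in the MTf clone and 1.21 in the vector control. The part of these differences in the results below was not tested.

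All 75 genes were detected on both arrays, and their signals differed little between the MTf clone and the vector control. The lowest, median and highest signals were 1542, 5938 and 25792 in the MTf clone, against 1722, 6310.4 and 24433 in the vector control. None of the 75 genes was at least 1.5-fold higher or at least 1.5-fold lower in the MTf clone, and none was 2-fold apart. Among all 12663 measured genes, 5.38% were at least 1.5-fold higher and 8.43% at least 1.5-fold lower; at 2-fold these shares were 1.21% and 1.9%. Of the 5736 genes at least as bright as the dimmest member, 95.4% lay within 1.5-fold. At a smaller size of 1.25-fold, added after the values were seen, 8 of the 75 genes were higher and 4 lower, against 15.3% and 19.7% of all measured genes. These counts change with the scaling. With hybridisation spikes as the centre, 17 members were at least 1.5-fold higher, or 22.7%, against 35.3% of all measured genes. With poly-A spikes as the centre, 50 were at least 1.5-fold lower, or 66.7%, against 48.3% of all measured genes.

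The median log2 ratio of the 75 genes was -0.051, against -0.022 over all measured genes, so that their median lay 0.029 below that of all genes; it was above it, by at most 0.028, in 2 of 11 alternative treatments of the data. On this scale 0 is an equal signal, and a positive value is higher in the MTf clone. Of the members, 30 were above 0 and 45 below, and 32 lay within 0.1 of it. Of all 12663 measured genes, 5969 were above 0 and 6692 below. Of the 5736 genes at least as bright as the dimmest member, 3141 were above and 2595 below. With the members left out, the 5661 others of these had a median log2 ratio of 0.030, further above that of the members. The log2 ratios had an SD of 0.22 across the 75 genes and 0.41 across all measured genes. Over those 5736 bright genes, which include the members, the SD was 0.28. Within 1.25-fold lay 84.0% of the 75 genes and 79.0% of those 5736.

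**Figure D1:**
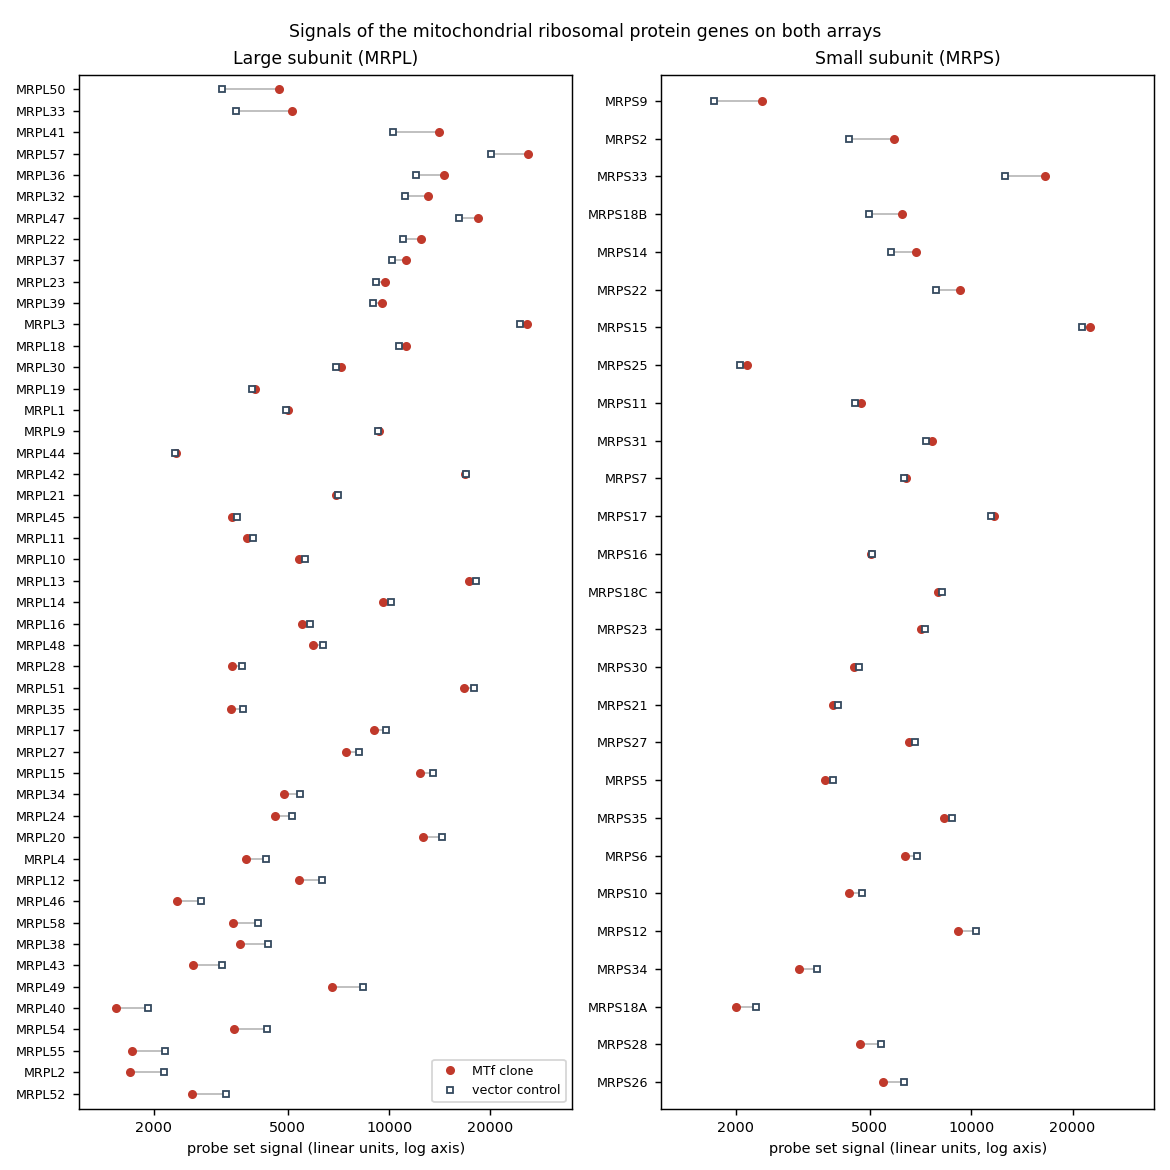
Signal of each of the 48 MRPL and 27 MRPS genes on its brightest probe set in the MTf clone (filled circles) and in the vector control (open squares), in linear units on a log axis, ordered from the highest log2 ratio at the top to the lowest. The pairs lie close together, from MRPL50 at 4717 and 3182 to MRPL52 at 2598 and 3282.

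Large and small subunit genes had similar medians, and the lowest ratios all belonged to the large subunit. The median log2 ratio was -0.067 over 48 large subunit genes and -0.042 over 27 small subunit genes, a difference of -0.025 that was not tested. Of 12 alternatives, 7 shift all members alike and cannot change this difference, and in the other 5 it lay between -0.065 and -0.027. Large subunit genes ran from -0.34 to 0.57, and small subunit genes from -0.21 to 0.48. The 10 lowest members were all MRPL genes, and 11 MRPL genes lay below the lowest MRPS gene, MRPS26, whereas 2 lay above the highest, MRPS9. A name does not always give the place in the particle, because the products of MRPS30 and MRPS18A sit in the large subunit. With subunits assigned by structure the medians were -0.067 over 50 large and -0.0031 over 25 small subunit genes, a difference of -0.064.

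**Figure D2:**
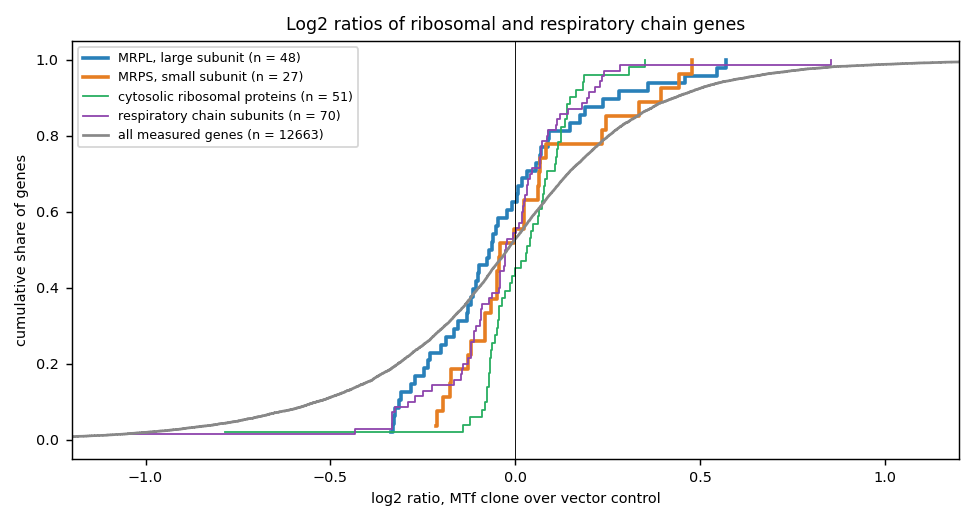
Cumulative share of genes (vertical axis) up to each log2 ratio of MTf clone over vector control (horizontal axis, cut at both ends) for 48 MRPL genes, 27 MRPS genes, 51 cytosolic ribosomal protein genes, 70 respiratory chain genes and all 12663 measured genes. The curves cross 0.5 close to a log2 ratio of 0, and the ribosomal curves are steeper than that of all genes.

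The highest ratios among the members included all 3 genes that lie on chromosome 9. MRPL50, a large subunit protein without a bacterial counterpart, read 4717 in the MTf clone and 3182 in the vector control, the highest ratio of the 75 at 1.48-fold. MRPL41, another large subunit protein found in mitochondria alone and one that has also been linked to apoptosis, read 14073 in the MTf clone and 10243 in the vector control, 1.37-fold higher. MRPS2, the counterpart of bacterial S2, read 5882 in the MTf clone and 4329 in the vector control, 1.36-fold higher. These 3 stood in places 1, 4 and 5 of the 75, with log2 ratios of 0.57, 0.46 and 0.44. Genes of chromosome 9 as a whole were higher in this clone: the 445 that lay above the floor on both arrays had a median log2 ratio of 0.48, the highest of the chromosomes plotted, where the other medians ran from -0.065 to 0.14. The 3 members thus lay near the median of their chromosome. Without them the other 72 members had a median of -0.057. Whether the chromosome has a part in these 3 values was not tested.

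**Figure D3:**
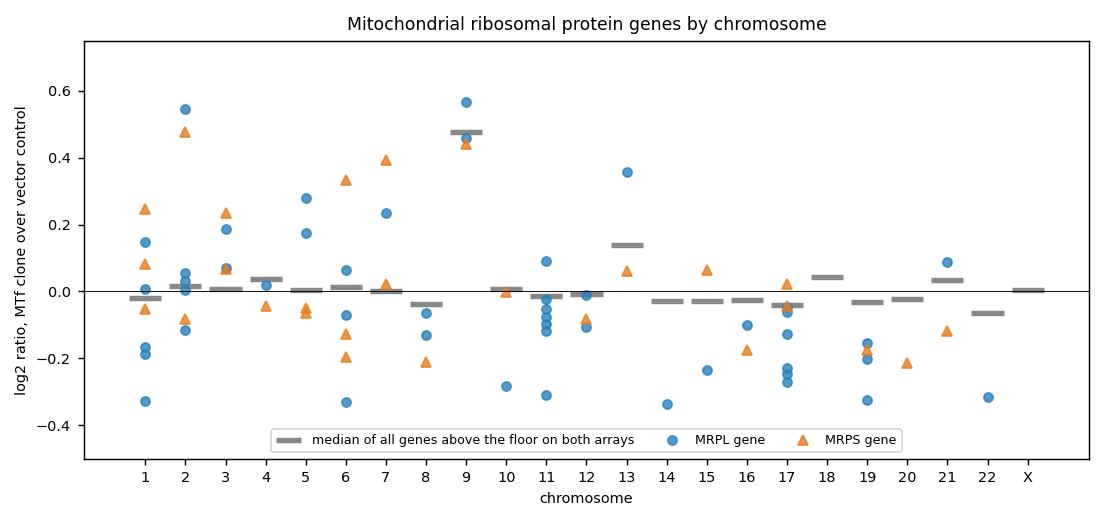
Log2 ratio of MTf clone over vector control for each MRPL gene (circles) and MRPS gene (triangles), by chromosome, with the median of all genes of that chromosome above the floor on both arrays as a grey bar. On chromosome 9 the bar stands at 0.48 and the 3 members at 0.44 to 0.57.

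Other members near the top lie on chromosomes whose genes did not shift in this way. MRPL33, the counterpart of bacterial L33, read 5137 in the MTf clone and 3521 in the vector control, 1.46-fold higher, and MRPS9, whose bacterial counterpart reaches the tRNA in the P site, read 2396 in the MTf clone and 1722 in the vector control, 1.39-fold higher. Both lie on chromosome 2, where the median of all genes was 0.017. MRPS33, a small subunit protein of mitochondria alone, is encoded on chromosome 7 and read 16529 in the MTf clone and 12594 in the vector control, 1.31-fold higher. MRPL57 on chromosome 13 read 25792 in the MTf clone and 20117 in the vector control, a log2 ratio of 0.36, against a chromosome median of 0.14. MRPS31, the other member on that chromosome, had a log2 ratio of 0.062. MRPS18B read 6253 in the MTf clone and 4964 in the vector control, the last of the 8 members past 1.25-fold. Below them, MRPL36, the counterpart of bacterial L36, had a log2 ratio of 0.28, the small subunit protein MRPS14 0.25, and MRPL32, which in yeast and mouse is matured by an inner membrane protease, 0.24. MRPS22, a small subunit protein in which mutations cause a mitochondrial disease of infancy, had a log2 ratio of 0.23.

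At the low end the 4 members past 1.25-fold were all large subunit genes. MRPL52, without a bacterial counterpart, read 2598 in the MTf clone and 3282 in the vector control, 1.26-fold lower and the lowest ratio of the 75. MRPL2, whose bacterial counterpart lies at the core of the subunit beside the peptidyl transferase centre, read 1702 in the MTf clone and 2139.7 in the vector control, 1.26-fold lower. MRPL55, the counterpart of bacterial L31, read 1726 in the MTf clone and 2167 in the vector control, and MRPL54 read 3472 in the MTf clone and 4353 in the vector control. Their log2 ratios of -0.33 and -0.33 were close to those of the next in order, MRPL40 at -0.32, MRPL49 at -0.31, MRPL43 at -0.28 and MRPL38 at -0.27. MRPL58, a peptidyl-tRNA hydrolase built into the large subunit, read 3445 in the MTf clone and 4092 in the vector control, a log2 ratio of -0.25. Of the small subunit, MRPS26 read 5466 in the MTf clone and 6339 in the vector control, MRPS28 4671 and 5409.8, MRPS34 3092 and 3493 and MRPS12 9127 and 10304 in the same order. Their log2 ratios were -0.21, -0.21, -0.18 and -0.17. MRPS12 is the counterpart of bacterial S12, which checks codon pairing in the decoding centre.

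Grouped by place in the ribosome, the genes of the central protuberance had the lowest median and those of the tunnel exit the highest of the 4 short lists used. The central protuberance is the crest of the large subunit that contacts the small subunit and the tRNAs. Of 7 members listed for it, 6 were lower than the all-gene median. The list median was 0.21 under that of all genes on the log2 scale and negative in all 11 alternatives. Most of these alternatives leave the ratios of the 7 genes unchanged or shift them alike, so they are not 11 separate checks of the sign. MRPL46 read 2352 in the MTf clone and 2771 in the vector control, MRPL38 3621 and 4368, MRPL40 1542 and 1919, MRPL27 7462 and 8153 and MRPL48 5938 and 6353 in that order of arrays. MRPL55, given above, was the lowest of the list. The exception was MRPL18, which read 11204 in the MTf clone and 10711 in the vector control. None of the 7 was 1.5-fold apart, and differences between such short lists were not tested. Ratios of the members also went with signal. The 22 with a mean signal under 4000 had a median log2 ratio of -0.15, and the 17 of 10000 or over 0.083. Of the 7 genes, MRPL40, MRPL46 and MRPL55 read under 4000 on both arrays and MRPL18 over 10000. Place and signal were not separated.

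The rim of the tunnel exit, where new chains leave towards the membrane, had 3 of 6 members higher than the all-gene median and a list median 0.044 over it, which turned negative in 2 of 10 alternatives. MRPL47 had a log2 ratio of 0.19, MRPL22 of 0.18 and MRPL23 of 0.090. On the other side, MRPL45, which holds the ribosome at the inner membrane, had a log2 ratio of -0.046, MRPL17 of -0.12 and MRPL24 of -0.17. The stalk and GTPase centre, where elongation factors dock, comprises MRPL10, MRPL11 and MRPL12. MRPL12, which has also been reported to bind the mitochondrial RNA polymerase, read 5387 in the MTf clone and 6320.4 in the vector control, a log2 ratio of -0.23. MRPL10 and MRPL11 had log2 ratios of -0.061 and -0.052, so all 3 were under the all-gene median.

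The 3 paralogues of bacterial S18 had ratios on both sides of 0. MRPS18B read 6253 in the MTf clone and 4964 in the vector control, MRPS18C 7972 and 8209 and MRPS18A 2001 and 2295 in the same order, with log2 ratios of 0.33, -0.042 and -0.20. MRPS18A is the paralogue whose product sits in the large subunit, and its other probe set had a log2 ratio of 0.11. MRPS30, also a large subunit protein in spite of its name, read 4489 in the MTf clone and 4645 in the vector control. Across all members, the 28 without a bacterial counterpart had a median log2 ratio of -0.057 and the 47 with one a median of -0.051, a difference of -0.0063. The SD was 0.25 among the members without a counterpart and 0.20 among the others.

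Many members were almost equal on the arrays on their brightest probe set. MRPL3, near the catalytic centre and mutated in a form of cardiomyopathy, read 25629 in the MTf clone and 24433 in the vector control. MRPL1, of the stalk beside the exit site for tRNA, read 5004 in the MTf clone and 4940.2 in the vector control, and MRPL9 read 9322 in the MTf clone and 9277 in the vector control. MRPL44, which has the fold of a ribonuclease, read 2324 in the MTf clone and 2316 in the vector control. In the small subunit, MRPS16, in which mutations cause neonatal lactic acidosis, read 5057 in the MTf clone and 5067 in the vector control, MRPS7 6413 and 6310.4, MRPS17 11651 and 11473 and MRPS15 22570.4 and 21306 in that order. MRPS27, a pentatricopeptide repeat protein, read 6532 in the MTf clone and 6835 in the vector control. The log2 ratios of these 9 genes lay between -0.066 and 0.083 on their brightest probe sets. Other probe sets went further for some. The second of MRPL44 stood at -0.62, and the 4 of MRPS15 ran from -0.51 to 0.26. Of the members not described singly, MRPL4, whose bacterial counterpart lines the exit tunnel, was the lowest at -0.20, and MRPL20, MRPL34, MRPL15, MRPS10, MRPS6, MRPL35, MRPL51 and MRPL28 lay between -0.19 and -0.10. MRPS35, MRPL16, MRPL14, MRPL13, MRPS21, MRPS23, MRPL21 and MRPL42 lay between -0.083 and -0.011, and MRPL30, MRPL39 and MRPL37 between 0.055 and 0.15.

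Different probe sets of a member often disagreed. Of the 140 probe sets, 122 passed the floor on both arrays, 2 in the MTf clone alone, 3 in the vector control alone and 13 on neither. For 27 members, at least 2 probe sets passed the floor on each array, 74 in all, and their log2 ratios had a pooled SD of 0.28 within genes. This spread comes from the same RNA and arrays and is not a replicate error; over all 5387 genes of this kind it was 0.35. All probe sets were higher in the MTf clone for 9 of the 27 members, all lower for 3, and mixed for 15. For 10 members the probe sets spanned 0.5 or more: MRPL19, MRPL43, MRPL44, MRPL47, MRPL52, MRPL57, MRPS5, MRPS12, MRPS15 and MRPS25.

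Further probe sets were looked at for the members at either end. Of the 8 members past 1.25-fold higher, 4 had a second probe set above the floor, and all 4 were higher on every such probe set. The second probe set of MRPL41 read 4324 in the MTf clone and 2866 in the vector control, a log2 ratio of 0.59, and that of MRPL50 read 2488 and 2052, a log2 ratio of 0.28. MRPL57 ranged from 0.037 to 0.70 over 4 probe sets, and the second probe set of MRPS18B stood at 0.12. At the low end, both probe sets of MRPL2 were lower, at -0.33 and -0.59, whereas the second of MRPL52 was higher, at 0.26 from signals of 284.0 in the MTf clone and 237.2 in the vector control. MRPS12 was lower on all 4 probe sets, from -0.17 on the brightest to -1.14 on a dim probe set that read 212.0 and 467.2. MRPS22 was higher on all 4, between 0.20 and 0.28, and MRPS14 on both, at 0.25. Of the 122 probe sets, 5 were at least 1.5-fold higher and 3 at least 1.5-fold lower, none of them the brightest of its gene. The share over all probe sets was not counted. On brightest probe sets alone, 5.27% of the 10795 genes above the floor on both arrays were at least 1.5-fold higher and 5.92% lower.

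**Figure D4:**
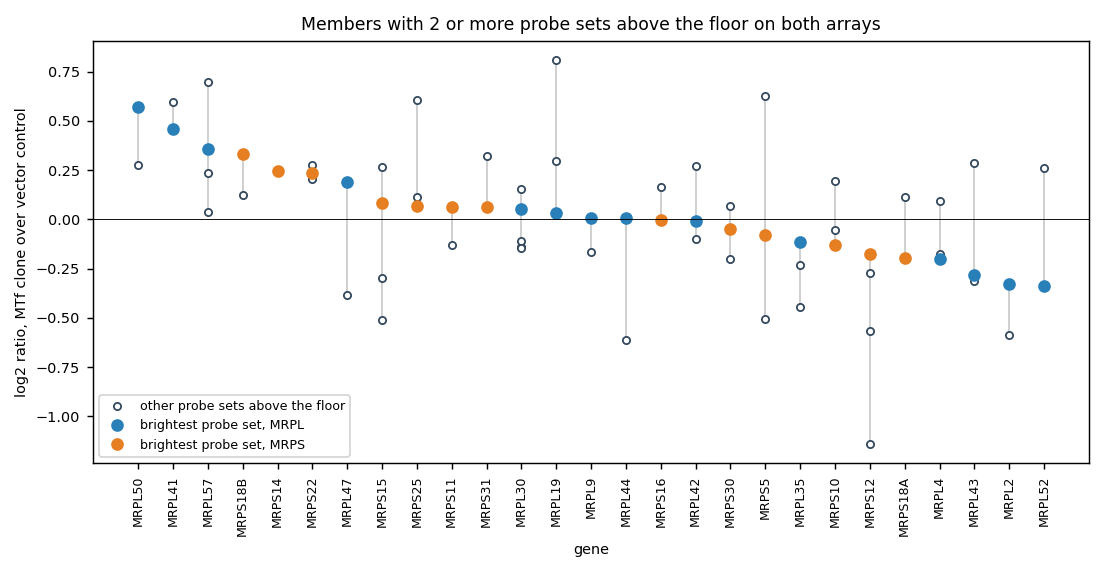
Log2 ratio of MTf clone over vector control for the 27 members read by at least 2 detected probe sets, with the brightest probe set filled (blue for MRPL, orange for MRPS) and the others open, joined by a grey line. MRPS22 and MRPS14 spread little, whereas MRPS5 and MRPS12 spread over more than 0.9.

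Ratios were set against the brightness of the members. Of the 17 members with a mean signal of 10000 or over, 12 were higher in the MTf clone and their median log2 ratio was 0.083. Of the 22 members under 4000, 5 were higher and the median was -0.15, and the 36 between had a median of -0.055. Among all genes as bright as the members, the medians in the same classes of signal were -0.0096 over 1115 genes, 0.032 over 2729 and 0.051 over 1892. Spearman's rho between signal and log2 ratio was 0.41 over the 75 members, 0.53 over the 48 large subunit genes and 0.17 over the 27 small subunit genes, against -0.035 over the 5736 genes. The difference in rho between the subunits was not tested. These correlations describe genes read on the same pair of arrays, and a signal also depends on the probes, so they are no measure of expression level.

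**Figure D5:**
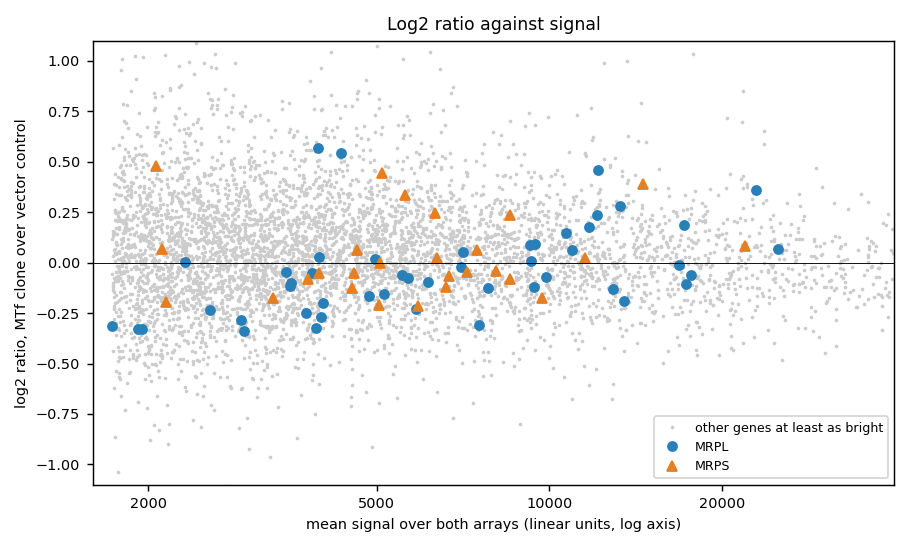
Log2 ratio of MTf clone over vector control (vertical axis, cut at both ends) against the mean signal over both arrays (linear units on a log axis, cut at the bright end) for MRPL genes (circles), MRPS genes (triangles) and other genes at least as bright (grey). The dimmest MRPL genes lie below 0 and most members over 10000 lie above it.

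Of the 4 ribosomal proteins analysed that carry other names, 3 lay below the all-gene median, and AURKAIP1 was not analysed. DAP3, a GTP-binding protein of the small subunit, read 15385 in the MTf clone and 15611 in the vector control. Its log2 ratio of -0.021 was almost at that median. PTCD3, a pentatricopeptide repeat protein of the small subunit, read 3068 in the MTf clone and 3753 in the vector control, a log2 ratio of -0.29. PTCD3 depended on the probe set, with 0.15 above the median of all genes as the median over its probe sets. CHCHD1 had a log2 ratio of -0.24 and GADD45GIP1, of the large subunit, -0.13. All 4 were below 0 and none was 1.25-fold apart.

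The factors that work with this ribosome were mostly close to equal. Of 15 translation factors, 1 was at least 1.5-fold higher and 0 at least 1.5-fold lower, against 5.38% and 8.43% of all measured genes. The list's median was 0.040 above that of all genes, negative in 1 of 11 alternatives. MRRF, the ribosome recycling factor, was the 1 that passed, at 3234 in the MTf clone and 1900.1 in the vector control, 1.70-fold higher; MRRF lies on chromosome 9. MTRF1L, a release factor, read 1220.4 in the MTf clone and 1776 in the vector control, 1.46-fold lower, the lowest ratio of the list. TUFM, the elongation factor Tu, read 15557 in the MTf clone and 14864 in the vector control, GFM1, the elongation factor G, 5248 and 5046, and MTIF2, the initiation factor, 4449 and 4392 in the same order.

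Among 23 measured assembly factors, 2 were at least 1.5-fold higher and 1 at least 1.5-fold lower, against 5.38% and 8.43% of all measured genes. The list median was 0.059 above that of all genes, likewise negative in 1 of 11 alternatives. METTL15, an enzyme that methylates the small subunit RNA, read 863.3 in the MTf clone and 455.5 in the vector control, 1.90-fold higher, although the median of its probe sets was 0.33 relative to all genes. MRM1, a methyltransferase of the large subunit RNA, read 421.2 in the MTf clone and 256.4 in the vector control, 1.64-fold higher from a signal near the floor. DHX30, an RNA helicase of mitochondrial RNA granules, read 2866 in the MTf clone and 4511 in the vector control, 1.57-fold lower, and the median of its probe sets was -0.27 relative to all genes. ERAL1, which binds the small subunit RNA, had a log2 ratio of -0.30, and MALSU1, an assembly factor of the large subunit, 0.086.

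Genes for the copying and expression of mitochondrial DNA were lower in 11 of 16, none past 1.5-fold. The list's median was 0.11 below that of all genes and negative in all 11 alternatives. Several of these alternatives leave the ratios of its genes unchanged and move only the all-gene median. POLRMT, the mitochondrial RNA polymerase, read 2362 in the MTf clone and 3087 in the vector control, a log2 ratio of -0.39. PNPT1, a polynucleotide phosphorylase, had a log2 ratio of -0.44, MTERF1, which binds a termination site, -0.46, and ELAC2, which trims tRNA ends, -0.38. TFAM, the packaging and transcription factor, had a log2 ratio of -0.15, while TFB2M, its partner in initiation, was on the other side at 0.31. The 9 measured matrix proteases and chaperones had a list median 0.013 above that of all genes, negative in 5 of 11 alternatives, with 0 past 1.25-fold in either direction.

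Of the transcription factors and coactivators of nuclear genes for mitochondria, 0 of 10 were 1.5-fold apart and 5 lay on either side of the all-gene median. GABPB1, a subunit of an ETS-family factor, had a log2 ratio of 0.32, and its DNA-binding partner GABPA 0.014. NRF1 stood at -0.068, YY1 at -0.22, MYC at -0.17 and ESRRA, an orphan nuclear receptor, at -0.31. PPARGC1A, a coactivator, read 247.9 in the MTf clone and 165.5 in the vector control, the control value under the floor.

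The members can be set beside the cytosolic ribosome and the respiratory chain. The 51 cytosolic ribosomal protein genes measured had a median log2 ratio 0.054 above that of all genes (negative in 1 of 11 alternatives) and an SD of 0.16, with RPLP2 as the 1 member 1.5-fold lower and 0 higher. RPLP2 read 277.7 in the MTf clone and 478.7 in the vector control on a dim probe set. The 70 respiratory chain genes had a median 0.0041 below that of all genes (positive in 5 of 11 alternatives) and an SD of 0.22, with 1 gene 1.5-fold higher and 1 lower. The higher was NDUFA8, a complex I subunit encoded on chromosome 9, which read 27975 in the MTf clone and 15497 in the vector control. The lower was COX6B2, a complex IV subunit mainly of testis, at least 2.07-fold lower from 35.6 in the MTf clone, below the floor, and 430.0 in the vector control. The difference between these lists was not tested, since there was 1 array a group. Over all measured genes, 5.38% were at least 1.5-fold higher and 8.43% at least 1.5-fold lower.

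The promoters of the members were searched for short motifs, which the choice by symbol did not use. RefSeq windows on GRCh38.p14, from 250 bases before to 50 bases after a start, were found for 67 of the 75 genes, 83 windows in all, since some genes have several starts. The letters CCGGAAG, a core bound by ETS factors such as GABPA, were present on either strand in 38.6% of the 83 windows, against 16.3% of the 14849 windows of measured genes and 10.3% of all 35116. The letters AANATGGC, a core bound by YY1, were present in 32.5% of the members' windows, against 9.17% of those of measured genes and 6.58% of all. For GGGCGG, bound by SP1, the shares were 59.0%, 64.4% and 45.0%, and for the TATA box letters TATAAA 3.61%, 6.65% and 11.5%. The NRF1 site, searched with 1 free base, was in 10 of the 83 windows, and in 9.68% and 5.78% of the others. In 10 windows both ETS and YY1 letters were present, with 0 overlaps between them. A match describes letters in a window and is no evidence of binding.

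The YY1 letters lay mostly just after the start: 23 of their 31 matches lay on the gene's own strand after the start, with the first base at positions 7 to 36. The ETS letters were spread more widely, with 26 of 43 matches beginning in the last 60 bases before the start. As examples of what the motifs look like in place, 3 members from the upper and 3 from the lower part of the range of ratios are given for each, a choice that says nothing of motif and ratio, 5′ to 3′ on the gene's strand, with the matching letters in capitals. For the ETS core they were taken from members with a match wholly before the start, which leaves out MRPL52 and MRPS33. MRPL33, MRPS22 and MRPL47 had the highest ratios of these, MRPL43, MRPL40 and MRPL54 the lowest, and CTTCCGG is the same core on the opposite strand.
MRPL33 (chr2:27771701-27771727, + strand): gggccgtgccCCGGAAGcagttgttgt
MRPS22 (chr3:139343905-139343931, + strand): gcCCGGAAGaCTTCCGGccctttccgc
MRPL47 (chr3:179604661-179604687, - strand): gcttgagacgCCGGAAGtgacgctatc
MRPL43 (chr10:100987499-100987525, - strand): cgtcccggaaCCGGAAGcctcgaggtt
MRPL40 (chr22:19432524-19432550, + strand): gggcgcacgcCCGGAAGcggcgagggt
MRPL54 (chr19:3762651-3762677, + strand): ccactgacgtCTTCCGGaaacgtgcac

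For the YY1 core they were taken from members with a match after the start on the gene's strand, which again leaves out MRPL52. MRPL50, MRPS9 and MRPS18B had the highest ratios of these, and MRPL46, MRPL38 and MRPL49 the lowest.
MRPL50 (chr9:101398578-101398605, - strand): gatctcatcgAAGATGGCggcgcgatct
MRPS9 (chr2:105038080-105038107, + strand): tcccacagctAACATGGCggcgccctgt
MRPS18B (chr6:30617853-30617880, + strand): ggcgtacgtcAAGATGGCggcgtctgta
MRPL46 (chr15:88467363-88467390, - strand): gggagaacgaAAGATGGCggcgcccgta
MRPL38 (chr17:75904861-75904888, - strand): ggccggagggAAGATGGCggcgccctgg
MRPL49 (chr11:65122334-65122361, + strand): gtagcaggtaAAGATGGCagctaccatg

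Windows with the ETS letters had a median log2 ratio of -0.099 and windows without them 0.0050, a description that was not tested. For the SP1 letters the medians were -0.082 with them and 0.019 without. With the YY1 letters the median was -0.011, and without them -0.062. In all these medians the ratio of a gene was counted for each of its windows, and some genes stood on both sides. For the ETS letters these were MRPS22, MRPL18 and MRPS33.

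Many members start back to back with another gene. Of the 67 genes with a window, 20 had a protein-coding start on the opposite strand within 1000 bases upstream. The share of windows from genes with such a neighbour was 32.5% for the members and 15.5% for measured genes. All windows of a gene counted here if any of its starts had a neighbour. Neighbours were sought for protein-coding genes only, whereas the measured genes can include others. Over all protein-coding windows the share was 12.9%. Of the 19 neighbours measured, 9 had a ratio on the same side of 0 as the member. At least 1.5-fold higher were 3, against 5.38% of all measured genes, and 0 were at least 1.5-fold lower, against 8.43%. The 19 include MRPS11 and MRPL46, each as the neighbour of the other. MRPS11 and MRPL46 are such a pair within the family, and their log2 ratios were 0.064 for MRPS11, which read 4719.7 in the MTf clone and 4514 in the vector control, and -0.24 for MRPL46. On chromosome 9, ZNF189, a zinc finger gene next to MRPL50, read 2805 in the MTf clone and 1551 in the vector control, a log2 ratio of 0.85, and PIERCE1 next to MRPS2 had a log2 ratio of 0.55. MRPL49 lies next to FAU, which encodes a fusion of a ubiquitin-like protein with a cytosolic ribosomal protein, and FAU had a log2 ratio of -0.064 beside -0.31 for MRPL49.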

How the data were processed

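The authors deposited linear intensity values, 1 signal per probe set and array for 54675 probe sets; the submitters' processing notes name GCOS 1.3. How probes were summarised and what target the arrays were scaled to was not given in the sources used here, nor were detection calls. Without the lowest and highest 2% of probe sets, the mean of the deposited intensity was 1000.12 on both arrays. Gene names came from the 2016 platform annotation, and 41043 of 41097 with 1 gene were matched by gene ID to RefSeq (GRCh38.p14), which changed no symbol of a member. A gene was read by the probe set with the highest mean signal. Measured means above the floor of 208, taken from 191 background probe sets, on at least 1 array; where the other array was below it, the floor stood in for that signal and the ratio is a bound, which concerned 0 members. With 1 array per group no test was made, and genes were counted at fixed ratios. Precision is limited by the number of arrays. The members, lists and rules were chosen with earlier results of these data known. Named were the members at either end of each subunit, those of the ribosomal sites listed, those on chromosomes 9 and 13, those whose probe sets disagreed, and list genes past 1.5-fold with examples; further members and list genes were picked after their values were seen. Alternatives changed the probe set, the floor, the scaling, the symbols, chromosome 9 and the assignment to subunits. Motifs were searched as exact letters, N standing for any base. Python 3.11.15 was used (pandas 2.3.3, numpy 2.4.6, statsmodels 0.14.6, matplotlib 3.10.9). The step that gives a ratio for each gene was tested on simulated data, with larger changes than those of the members. The motif and neighbour searches and the alternatives were not tested in this way.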

Additional observations from a re-analysis of the deposited data

How the results depend on the processing

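Medians here are relative to all measured genes. The median of the 75 members, -0.029 as given, lay between -0.089 and 0.028 over 11 alternatives and below 0 in 9. It moved to 0.028 without probe sets of shared sequence (41 members) and 0.026 without a floor, where the large subunit stood at 0.0098 and the small at 0.035; to -0.089 centred on the poly-A spikes, where they stood at -0.10 and -0.080; and to -0.083 with a loess trend on signal removed, where the large subunit stood at -0.090. The small subunit was 0.052 without shared sequences. Large minus small cannot change in 7 of its 12 alternatives, which shift all members alike, and lay between -0.065 and -0.027 in the other 5. The cause of these shifts was not tested.

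Counts followed the scaling. Centred on the hybridisation spikes, which moved the median of all genes to 0.46, 17 members were 1.5-fold higher, 2 were 2-fold higher, 59 were 1.25-fold higher and 0 were 1.25-fold lower, against 35.3%, 7.33%, 64.9% and 7.01% of all measured genes. Centred on the poly-A spikes, which moved it to -0.57, 50 were 1.5-fold lower, 67 were 1.25-fold lower and 0 were 1.25-fold higher, against 48.3%, 77.4% and 1.51% of all genes. Without probe sets of shared sequence 1 of 41 members was 1.5-fold higher, 1 was 1.5-fold lower and 5 were 1.25-fold higher, against 6.46%, 8.33% and 17.5% of all genes; without chromosome 9, 5 of 72 were 1.25-fold higher, against 13.5%. The central protuberance list was negative in all 11 alternatives, from -0.27 to -0.16, but most of them leave the ratios of its genes unchanged or shift them alike. Cytosolic ribosomal proteins moved to 0.14 without shared sequences, 0.11 without a floor and -0.0058 on poly-A spikes, the respiratory chain to 0.051 without a floor and -0.063 on poly-A spikes, and mitochondrial DNA expression to -0.020 without shared sequences. No paired analysis was possible because each group has 1 array and the labels give no pairing of the lines.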
